A study of Rattus norvegicus with 32 samples.

Results

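The chemokines described here are 10 small secreted proteins that steer white blood cells and other cells through tissue, measured in the mammary gland of the rat over its 4-day estrous cycle. The members, 10 of the 14217 genes with a symbol of their own on the array, were Cxcl1, Cxcl2, Ccl2, Ccl7, Ccl11, Cxcl12, Cxcl13, Cxcl14, Cxcl16 and Ccl19. Every probe set that the array's annotation assigns to one of these symbols was taken, which gave 13 of the 31042 probe sets on the array, a probe set being the group of short oligonucleotides that reads one transcript. Of the 13, 12 had a median intensity of at least 10 over the 31 arrays used and were tested among 22943 such probe sets. The probe set of Cxcl2 had a median of 6.31 and is given as near background.

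The series asked which transcripts vary with time over the estrous cycle when no time point is repeated. Glands of 32 untreated virgin Sprague Dawley rats were read on 1 Affymetrix Rat 230 2.0 array each, and every rat was killed at a different hour, so that a time point is 1 animal. Day 1 held 8 rats (7 to 17.6 h), day 2 held 8 (31.6 to 43 h), day 3 held 8 (57 to 67.1 h) and day 4 held 7 (79.3 to 88.1 h), with estrus placed on day 2, and the array of 40 h was set aside as the study did. All rats were killed between clock hours 7 and 19.1, which left the night without a sample, and 17 were killed after noon and 14 before it. Lymph nodes had been cut out of the glands before extraction. Rats of one day are separate animals and stood in for replicates, so the spread around each fit holds differences between rats as well as measurement error.

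Chemokines bind receptors on the surface of leukocytes and set up gradients along which the cells move. Some are induced by inflammatory signals, such as Cxcl1 and Cxcl2, which draw neutrophils, and Ccl2 and Ccl7, which draw monocytes. Others are made steadily by stromal or lymphoid tissue, such as Cxcl12, which retains and guides many cell types, and Cxcl13 and Ccl19, which organize B cells and T cells in lymph nodes. Macrophages and the eosinophils that Ccl11 draws are known in mouse to take part in the branching of mammary ducts. In whole tissue, fewer cells of a type and less RNA per cell cannot be told apart.

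The median intensity of an array lay between 49.9 and 54.7. Transcripts of luminal epithelium, of myoepithelium and of fat were present in every rat, with summed intensities of 15139 to 27927, of 6965 to 16326 and of 56006 to 96365, while skeletal muscle transcripts ran from 1731 to 48061. All 12 clock genes that were tested changed over the day, 8 upward and 4 downward. Rats killed at nearly the same hour of day 1 still differed. Between the rats of 7.5 and 7 h the 12 chemokine probe sets differed by a median of 0.42 on the log2 scale (0.02 to 0.75), and between those of 13.2 and 13 h by 0.41 (0.05 to 1.1).

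The change over the day was estimated with limma as a slope of log2 intensity on the clock hour, in a fit that also had a term for each cycle day, and is given per 10 h. Of the 12 probe sets tested, 1 was lower later in the day, that of Cxcl1, against 0.68% of all probe sets tested, and 0 were higher, against 1.08%. The other 11 did not pass at an adjusted p of 0.05. Before adjustment, 3 of the 12 had a limma p under 0.05, against 12.1% of all probe sets tested. The median slope was −0.21 over the 12 and 0.02 over all probe sets tested.

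Cxcl1, the rat counterpart of the human neutrophil attractant GRO, fell by 1.70 on the log2 scale over 10 h (SE 0.30, 95% interval −2.30 to −1.09, limma adjusted p = 0.000847), which is a 3.24-fold lower intensity. In rats killed after noon the lowest, median and highest Cxcl1 intensities were 107.1, 192.5 and 505.0 (mean 206 ± 101 SD, n = 17), against 320.5, 412.9 and 741.3 before noon (478 ± 147 SD, n = 14). Of the 17 rats killed after noon, 15 lay below the lowest rat killed before noon, and the exceptions were the rats of 13 h (367.9) and 38.3 h (505.0).

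The slope of Cxcl1 was negative on each of the 4 days, but intensities did not fall steadily through the morning. On days 3 and 4 the last rat before noon was the highest of its day (741.3 at 59.8 h and 722.9 at 83.9 h). With before and after noon as classes in place of the slope, the difference was −1.29 on the log2 scale (limma adjusted p = 9.35e-05). On day 1 the rats of 13, 13.2, 14.6, 16 and 17.6 h had 367.9, 220.6, 206.3, 196.3 and 172.6, against 403.3, 411.2 and 365.7 at 7, 7.5 and 10 h. On day 2 intensities of 110.9, 505.0, 149.4 and 107.1 at 37.1, 38.3, 41.6 and 43 h stood against 361.2, 320.5, 500.5 and 369.4 at 31.6, 32.8, 34.5 and 35.5 h. On day 3 the 5 rats after noon lay between 118.6 (61.3 h) and 239.2 (62.5 h), against 741.0, 406.4 and 741.3 at 57, 58 and 59.8 h. Rats after and before noon did not overlap on day 3, nor on day 4.

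On day 4 Cxcl1 had 250.4, 229.6 and 141.4 at 85.3, 86.3 and 88.1 h, against 465.0, 465.3, 414.6 and 722.9 at 79.3, 80.9, 82.5 and 83.9 h. Fitted for each day, the slopes per 10 h were −1.24 ± 0.57, −1.51 ± 0.54, −2.30 ± 0.61 and −1.94 ± 0.76 on days 1 to 4 (SE). Whether the slopes differed between days was tested with limma's F over the day by hour terms, which called 0 of the 12 probe sets, against 0.00436% of all probe sets tested. Before adjustment, 0 of the 12 and 3.66% of all probe sets had a p under 0.05, and for Cxcl1 that p was 0.61. Between days Cxcl1 did not pass either (any-day adjusted p = 0.914).

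Leaving out any single rat gave a Cxcl1 slope between −1.76 and −1.59, and the call was kept without each rat in turn and without each whole day. Its share of variance in the study's spline over the 4 days was 0.563, against a median of 0.247 over all probe sets tested. The 5 genes whose log2 intensity was most alike that of Cxcl1 over the 31 arrays, among 11797 genes with a single symbol, were Cebpd (Pearson r = 0.89), a transcription factor of the acute phase response, Rnd1 (0.859), a small GTPase, Bmal1 (0.851) and Npas2 (0.821), which pair as activators of the circadian clock, and Lrig1 (0.807), a membrane protein that restrains growth factor receptors. These correlations describe arrays that share the sampling hour.

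**Figure D1:**
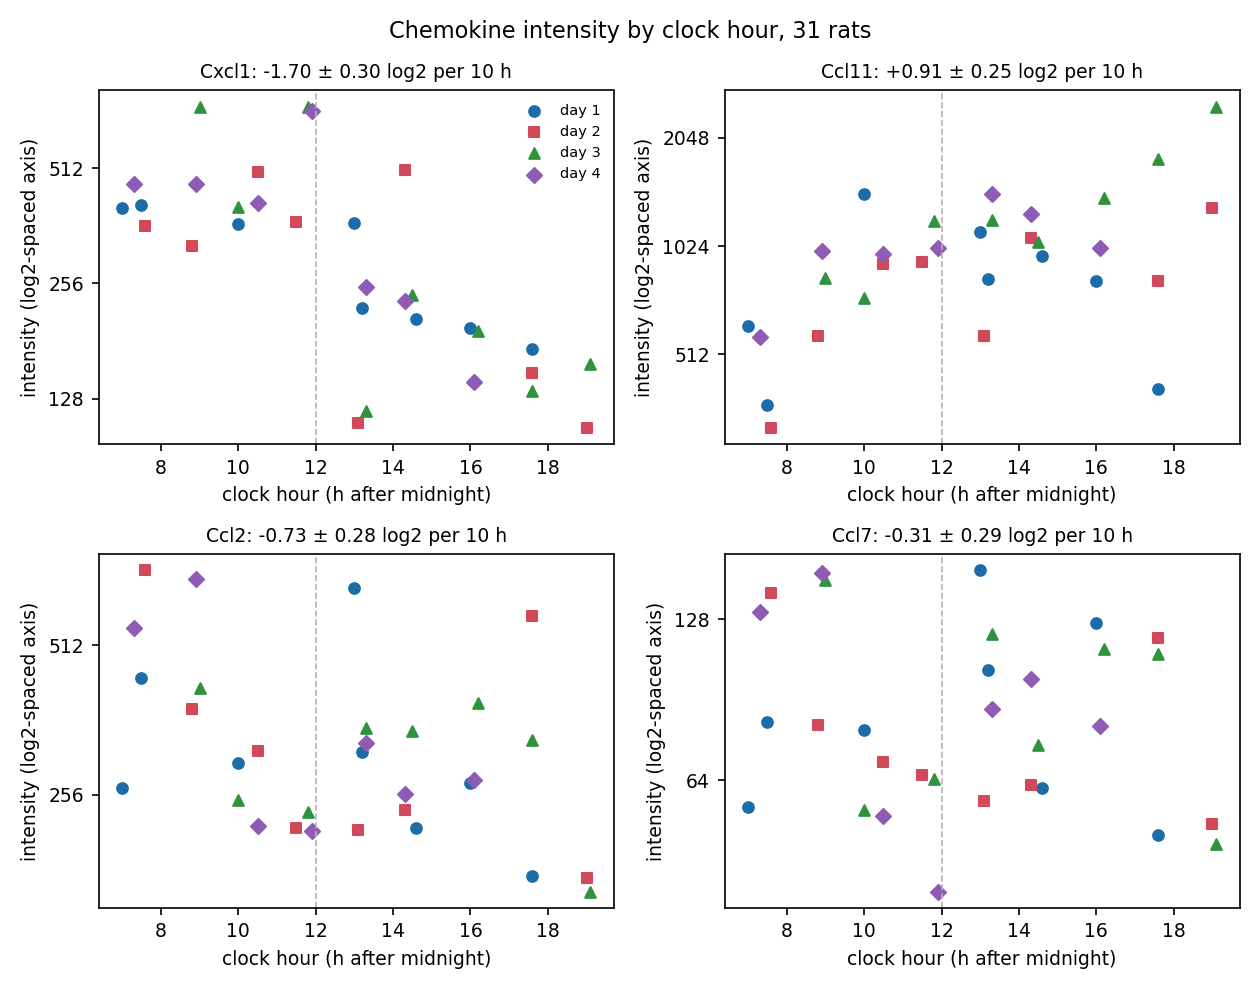
Intensity (log2-spaced axis) of Cxcl1, Ccl11, Ccl2 and Ccl7 against the clock hour of death in 31 rats, with a point per rat, colour and shape for the cycle day and a dashed line at noon. Panel titles give the limma change per 10 h with its SE, and 15 of the 17 Cxcl1 points after noon sit below all points before noon.

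Cxcl2, the second neutrophil attractant, lies next to Cxcl1 in the rat genome, on chromosome 14. Its intensities after noon had a lowest, median and highest value of 3.97, 5.67 and 17.6, against 5.05, 8.57 and 18.0 before noon, and the groups overlapped. In 24 of the 31 rats it was under 10, which is too close to background for a test. Its Pearson r with Cxcl1 was 0.586 over the 31 arrays.

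The 250 bases before the start of both genes are shown because the pair is a textbook target of the inflammatory factor NF-kappaB and their neighbourhood lets a reader compare them. The sequences are RefSeq's on build GRCr8, minus strand, chr14:17479322-17479571 for Cxcl1 and chr14:17467256-17467505 for Cxcl2, with the stretch covered by matches to the kappaB consensus in capitals.
Cxcl1: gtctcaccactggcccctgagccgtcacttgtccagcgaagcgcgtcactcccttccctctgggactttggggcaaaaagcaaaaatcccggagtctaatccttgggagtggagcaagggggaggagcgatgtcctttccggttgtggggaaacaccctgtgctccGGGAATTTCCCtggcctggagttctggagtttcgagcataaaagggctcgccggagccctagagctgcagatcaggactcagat
Cxcl2: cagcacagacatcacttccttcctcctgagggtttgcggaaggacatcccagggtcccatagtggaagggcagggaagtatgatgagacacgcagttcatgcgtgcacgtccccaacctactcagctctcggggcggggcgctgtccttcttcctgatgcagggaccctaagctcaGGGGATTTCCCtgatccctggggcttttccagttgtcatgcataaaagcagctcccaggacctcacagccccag
In each gene the consensus matched in overlapping positions, on both strands, 84 to 74 bases before the start in Cxcl1 and 74 to 64 bases before it in Cxcl2. The same search found it in 3.54% of 33469 promoter windows of this length. Promoters of 8 of the 10 genes were in the table. No window of these 8 held the E-box CACGTG (5.59% of all windows) or the D-box TTATGTAA (0.828%), motifs bound by clock factors, and AGGTCA (14.1% of all windows), the core bound by ROR and REV-ERB receptors, was found once in Ccl19 and once in Cxcl13. A match is a description of letters and not of a bound site.

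Neutrophil transcripts were low in most rats, and their sum was highest in the rat of 7.5 h. Of 7 neutrophil markers on the array, 4 had a median under 10, and the summed intensity of the 7 ran from 83.5 to 191.2 after noon (median 103.3), against 95.3 to 388.0 before noon (median 111.7). The 3 that were tested, S100a8, S100a9 and Fcgr3a, did not pass over 10 h, with −0.78, −0.53 and 0.08 on the log2 scale. With the neutrophil, macrophage, fibroblast and endothelial list means as covariates the Cxcl1 slope was −1.72 (adjusted p = 0.0153). This fit was chosen after the data had been seen, and its neutrophil covariate held only the 3 markers tested. With the lymphocyte, fat, muscle and luminal lists, which had been planned, the Cxcl1 slope was −2.11 (adjusted p = 0.000264). Among 24 inflammatory inducers and NF-kappaB feedback genes, of which 21 were tested, 1 was higher later in the day and 1 lower. Nfkbia, the inhibitor that NF-kappaB induces against itself, rose by 0.44 over 10 h (SE 0.11, adjusted p = 0.0408), and Selp, the endothelial selectin on which leukocytes roll, fell by 0.78 (SE 0.18, adjusted p = 0.0142).

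Ccl11, or eotaxin, which draws eosinophils, had the slope opposite to Cxcl1 and narrowly missed the threshold, at 0.91 on the log2 scale over 10 h (SE 0.25, 95% interval 0.40 to 1.42, adjusted p = 0.0521), a 1.88-fold difference. After noon its lowest, median and highest intensities were 409.9, 1081 and 2501 (1152 ± 480 SD, n = 17), against 319.0, 871.7 and 1432 before noon (820 ± 311 SD, n = 14). The groups overlapped widely, and 12 of the 17 rats after noon lay above the median before noon. The highest 2 values in the series came from the rats of 65.6 h (1793) and 67.1 h (2501), at the end of day 3.

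By day the Ccl11 slopes were 0.14 ± 0.45, 1.16 ± 0.43, 1.48 ± 0.49 and 0.94 ± 0.61 on days 1 to 4 (SE), with an unadjusted p of 0.23 for a difference between them. Without day 1 the slope was 1.22 (adjusted p = 0.00213), and without the rat of 17.6 h, which had 409.9, it was 1.15 (adjusted p = 0.00194). With the lymphocyte, fat, muscle and luminal lists as covariates it was 0.48 (adjusted p = 0.506). Of the 10 fat genes tested, 2 were themselves higher over 10 h, so these covariates can take up part of an hour slope. Why the Ccl11 slope was smaller in that fit was not tested. Day means of Ccl11 were 821 ± 358, 814 ± 314, 1340 ± 573 and 1037 ± 266 (SD) on days 1 to 4, and the difference of day 3 from day 1 was 0.59 (SE 0.24, adjusted p = 0.257). Its share of variance in the spline, 0.564, was near that of Cxcl1. Markers of eosinophils and mast cells, 10 genes on the array with 3 under a median of 10, summed to 1631 to 3553 after noon (median 2778), against 1549 to 3318 before noon (median 2354), and 0 of the 7 tested passed over 10 h. Their Pearson r with Ccl11 was 0.08 by list mean, and their part in the Ccl11 slope was not tested.

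Ccl2 and Ccl7, ligands of the monocyte receptor Ccr2, are neighbours on chromosome 10, with Ccl11 next to Ccl7. Ccl2 had a lowest, median and highest intensity of 163.2, 274.0 and 665.8 after noon (n = 17), against 216.1, 305.0 and 725.1 before noon (n = 14), and a slope of −0.73 over 10 h (SE 0.28, 95% interval −1.30 to −0.15) that did not pass (adjusted p = 0.245). Ccl7 ran from 48.7 to 158.1 after noon (median 86.8), against 39.6 to 155.9 before noon (median 74.3), with a slope of −0.31 (SE 0.29, adjusted p = 0.713). For both genes rats after and before noon overlapped, and high and low rats stood side by side at the same hour.

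Much the same rats were high in both. Ccl2 and Ccl7 had a Pearson r of 0.848 over the 31 arrays. The rats highest in Ccl2, those of 80.9, 31.6, 13, 41.6 and 79.3 h, had Ccl2 intensities of 695.8, 725.1, 665.8, 585.7 and 553.9. Their Ccl7 intensities were 155.9, 143.4, 158.1, 118.3 and 132.0. The match was not complete, as the rat of 57 h had 151.3 in Ccl7 with 420.2 in Ccl2. Ccl11, at the same locus, did not go with them (r = −0.298 with Ccl2). The mean of the inflammatory list had an r of 0.67 with Ccl2, the highest of the 14 gene lists, and macrophage markers had 0.13. Between days neither gene passed, and their any-day F values were 0.05 and 0.16. Ccl7 had a share of variance in the spline of 0.077, which only 3.03% of the probe sets tested fell below.

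**Figure D2:**
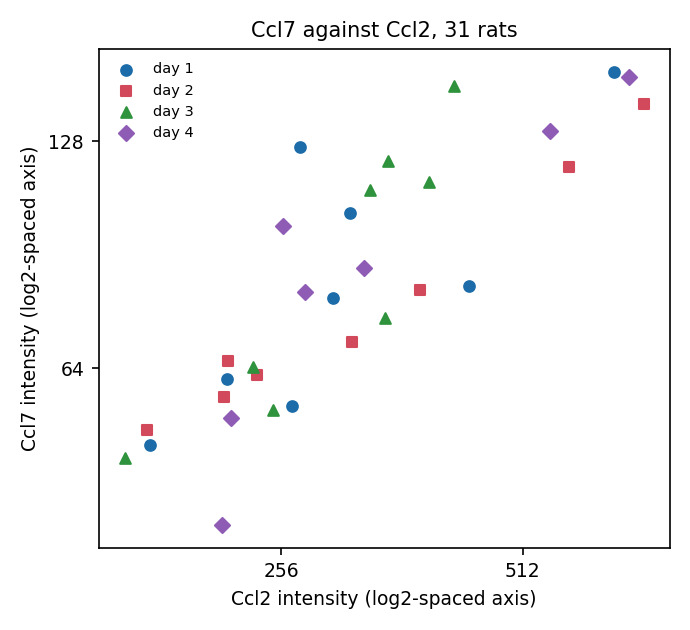
Ccl7 against Ccl2 intensity in 31 rats, both on log2-spaced axes, with a point per rat and colour and shape for the cycle day. The points follow 1 band (Pearson r = 0.848) in which the 4 days are mixed.

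Differences between days were tested in the same fit. Over any of the 4 days 1 of the 12 probe sets passed, probe set 1388485_at of Cxcl14, against 0.501% of all probe sets tested. Of the 6 pairs of days, only day 3 against day 1 had a member past the threshold, again Cxcl14, so that 1 of 12 was lower on day 3, against 0.628% of all probe sets, and 0 were higher, against 0.327%. In the other pairs 0 of 12 passed, where the share of all probe sets called in either direction was 0.00436% for day 2 against day 1, 0.0218% for day 4 against day 1, 0.227% for day 3 against day 2, 0.0479% for day 4 against day 2 and 0 for day 4 against day 3. At an unadjusted p of 0.05, 8 of the 12 differed between day 3 and day 1, against 13.7% of all probe sets tested. The 3 probe sets of Cxcl12, both of Cxcl14 and that of Cxcl13 were lower on day 3, and those of Ccl11 (0.59) and Ccl19 (1.25) were higher. Probe sets of the same gene are not independent of each other.

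Cxcl14, a chemokine of epithelium and stroma that is known to draw monocytes and dendritic cells, fell by 1.05 on the log2 scale on day 3 relative to day 1 (probe set 1388485_at, SE 0.23, 95% interval −1.51 to −0.59, limma adjusted p = 0.0188), which is 2.07-fold lower. Its lowest, median and highest intensities were 377.7, 752.4 and 1012 on day 1, 201.0, 378.6 and 663.1 on day 2, 169.2, 359.0 and 403.6 on day 3, and 440.5, 554.7 and 747.5 on day 4. Of the 8 rats of day 3, 6 lay below the lowest rat of day 1, and the 7 rats of day 4 lay above all those of day 3. The means were 324 ± 79 on day 3 and 703 ± 240 on day 1 (SD, n = 8 each).

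Day 2 against day 1 had −0.83 (SE 0.22) and day 4 against day 3 had 0.80 (SE 0.24) for the same probe set, and neither passed (adjusted p = 0.561 and 0.854). The F over all days was 9.21 (adjusted p = 0.0419), and in 24 of the 31 fits that each left out 1 rat it no longer passed. The difference of day 3 from day 1 had an adjusted p of 0.0568 without the rat of 14.6 h and of 0.0555 without that of 16 h, both of day 1. The second Cxcl14 probe set, 1396129_at, was close to background, with 7.20, 13.4 and 15.6 as lowest, median and highest intensity on day 3, against 14.8, 18.3 and 27.1 on day 1. It had −0.59 (SE 0.21, adjusted p = 0.176) and a Pearson r of 0.869 with 1388485_at. Over the hours of the day neither moved past the threshold (−0.20 and −0.22 over 10 h).

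The 5 genes most alike Cxcl14 over the 31 arrays were Aqp5 (Pearson r = 0.894), a water channel of secretory epithelium, Elapor1 (0.854), an endosomal and lysosomal membrane protein, Dhrs7 (0.837), a short-chain dehydrogenase, Tnfsf10 (0.824), the death ligand TRAIL, and Serpinb9 (0.82), an inhibitor of granzyme B. Endothelial markers, 9 of 9 on the array at a median of 10 or more, went with Cxcl14 (r = 0.53 with their list mean), and their summed intensity on day 3 was 4470 to 6062 (median 5260), against 4717 to 7296 on day 1 (median 6385). Macrophage markers, 10 of 10 at a median of 10 or more, had r = 0.46 and summed to 8219 to 14770 on day 3 (median 11911), against 10437 to 14530 on day 1 (median 12846). With the neutrophil, macrophage, fibroblast and endothelial list means as covariates, a fit chosen after the data had been seen, the day 3 difference was −0.88 (adjusted p = 0.55) and the count of all probe sets lower on day 3 was 0, against 144 without these covariates. With the lymphocyte, fat, muscle and luminal lists it was −1.1 (adjusted p = 0.0113).

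**Figure D3:**
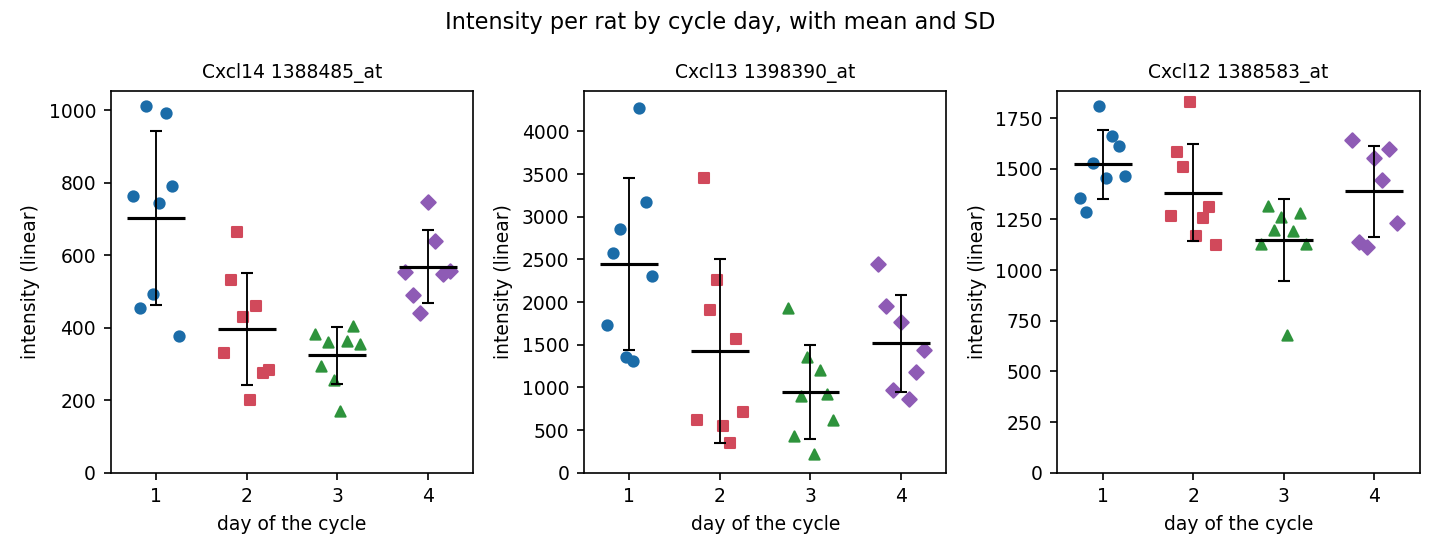
Linear intensity of Cxcl14, Cxcl13 and 1 probe set of Cxcl12 in each rat by cycle day, with horizontal bars for the mean and whiskers for the SD (n = 8, 8, 8 and 7), and rats of a day in order of sampling hour. For Cxcl14 the 8 rats of day 3 lie at 169.2 to 403.6, below all 7 rats of day 4, and for Cxcl13 and Cxcl12 the lowest rat is that of 62.5 h on day 3.

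Cxcl12, the ligand of Cxcr4 that holds progenitor cells and lymphocytes in stromal niches, was read by 3 probe sets, which all had lower estimates on day 3 than on day 1 without passing. For 1369633_at the difference was −0.36 (SE 0.16, adjusted p = 0.293), for 1387655_at −0.64 (SE 0.24, adjusted p = 0.207) and for 1388583_at −0.42 (SE 0.12, adjusted p = 0.0966). The lowest, median and highest intensities of 1388583_at were 1288, 1496 and 1810 on day 1, 1126, 1289 and 1829 on day 2, 679.2, 1196 and 1315 on day 3, and 1114, 1442 and 1644 on day 4. Of the 8 rats of day 3, 7 lay below the lowest rat of day 1. With array weights, a fit that trusts variable arrays less, this probe set passed (−0.41, adjusted p = 0.0364).

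The other probe sets of Cxcl12 overlapped more. That of 1369633_at ran from 3595 to 7533 on day 3 (median 6066), against 5517 to 9545 on day 1 (median 6977), and that of 1387655_at from 263.2 to 615.3 on day 3 (median 540.3), against 436.0 to 1331 on day 1 (median 729.6). Pearson r between the 3 was 0.614 to 0.792. Over the hours of the day their slopes were 0.09, 0.23 and −0.05, none past the threshold. The receptors Cxcr4 and Ackr3, which bind Cxcl12, had 0.03 (SE 0.22) and −0.17 (SE 0.16) on day 3 against day 1 and did not pass.

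Cxcl13, which draws B cells through Cxcr5, had the widest span of the 12 probe sets tested, 19.9-fold, between the rat of 62.5 h (215.3) and that of 14.6 h (4277). Its lowest, median and highest intensities were 1311, 2444 and 4277 on day 1, 353.5, 1143 and 3455 on day 2, 215.3, 910.9 and 1935 on day 3, and 861.4, 1440 and 2447 on day 4. On day 3, 6 of the 8 rats lay below the lowest rat of day 1, and the difference was −1.45 (SE 0.42, 95% interval −2.32 to −0.59), a 2.74-fold lower intensity that did not pass (adjusted p = 0.0918). With the lymphocyte, fat, muscle and luminal lists as covariates it was −1.78 and passed (adjusted p = 0.0416). Over the hours of the day Cxcl13 had −0.45 (SE 0.44, adjusted p = 0.722).

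Cxcl13 varied with both Cxcl12 and Cxcl14 from rat to rat, and Cxcl12 and Cxcl14 varied together less evenly. The Pearson r of Cxcl13 with the 3 probe sets of Cxcl12 was 0.657 to 0.793, and with those of Cxcl14 0.669 and 0.71. Between Cxcl14 and Cxcl12 it was 0.67 and 0.675 for 1388583_at, 0.543 and 0.579 for 1369633_at, and 0.386 and 0.427 for 1387655_at. The rat of 62.5 h had the lowest value of all 31 in Cxcl13, in the 3 probe sets of Cxcl12 and in 1388485_at of Cxcl14, and its summed macrophage (8219) and endothelial (4470) marker intensities were also the lowest of the 31, as were those of the chemokine receptors (2557) and of the inflammatory list (7592), and 1 rat was lower for the other chemokines (8232). Its fibroblast markers (83713) were not, with 11 rats below it. For its luminal (22292) and basal (13126) markers 21 and 25 rats were lower, and for its fat markers (60439) 2 were. Macrophage list means had r = 0.51 to 0.71 with the Cxcl12 probe sets, 0.50 with Cxcl13 and 0.46 and 0.36 with Cxcl14. The basal and myoepithelial list ran the other way, with r = −0.55, −0.53 and −0.42 for the Cxcl12 probe sets, −0.59 for Cxcl13 and −0.28 for both of Cxcl14, and its summed intensity was 10685 to 16326 on day 3 (median 13917), against 6965 to 11073 on day 1 (median 9635). With the neutrophil, macrophage, fibroblast and endothelial lists as covariates the any-day F of Cxcl13 was 1.22 (adjusted p = 0.808), against 4.24 (adjusted p = 0.298) without them. That of 1388583_at of Cxcl12 was 0.29 (adjusted p = 0.958), against 3.99 (adjusted p = 0.324). Neither probe set passed in either fit. The fit with these lists was chosen after the data had been seen. Over all probe sets its any-day count was 10, against 115 without the lists, so the fall was not particular to these genes. Its cause was not tested. Without the rat of 62.5 h Cxcl14 was at −0.93 on day 3 against day 1 (adjusted p = 0.0430).

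**Figure D4:**
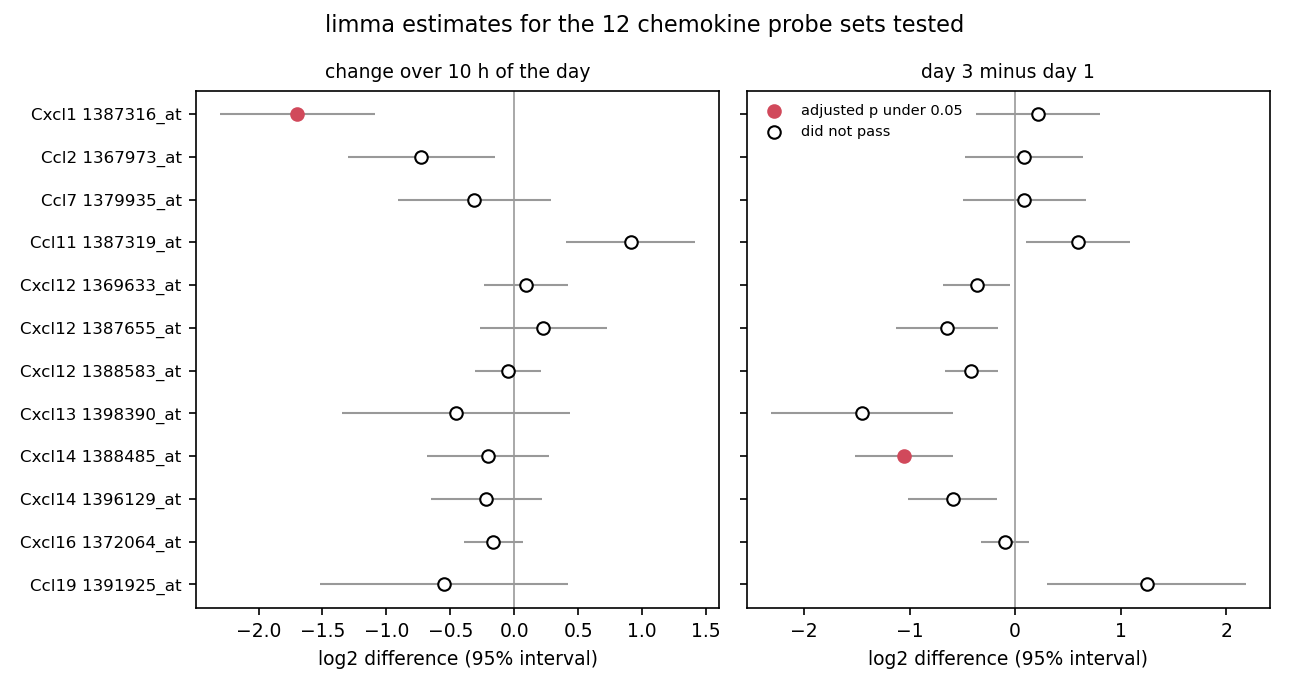
Log2 change over 10 h of the day (left) and log2 difference of day 3 from day 1 (right) for the 12 probe sets tested, from limma, with 95% intervals and filled points where the adjusted p was under 0.05. Cxcl1 (−1.70) was past the threshold on the left and Cxcl14 (−1.05) on the right.

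Ccl19, which guides T cells and dendritic cells through Ccr7, was close to background in most rats and high in a few. In 25 rats it lay between 10.6 and 26.1. In the other 6 it was 123.4, 39.0, 95.7 and 58.4 at 57, 59.8, 61.3 and 67.1 h on day 3 and 156.2 and 57.0 at 80.9 and 88.1 h on day 4. The lowest, median and highest values were 11.6, 14.6 and 16.6 on day 1, 13.2, 14.1 and 26.1 on day 2, 12.02, 28.2 and 123.4 on day 3, and 10.6, 17.4 and 156.2 on day 4. The difference of day 3 from day 1 was 1.25 (SE 0.46, 95% interval 0.30 to 2.19) and did not pass (adjusted p = 0.209), and neither did the slope over the day (−0.55, SE 0.48, adjusted p = 0.681).

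The 6 rats with high Ccl19 were those with high lymphocyte transcripts. The summed intensity of 12 lymphocyte and lymph node markers, of which 3 had a median under 10, was 2179 to 7390 in these 6 and 714 to 1347 in the other 25, and the ranges of Cd3e, a chain of the T cell receptor complex, were 84.7 to 360.3 and 21.0 to 49.4. Ccl19 had a Pearson r of 0.96 with the mean of the list and 0.951 with Cd3e. By day the summed intensity was 832 to 1254 on day 1, 714 to 1347 on day 2, 755 to 6193 on day 3 and 859 to 7390 on day 4, and 0 of the 9 lymphocyte genes tested passed on day 3 against day 1. With the lymphocyte, fat, muscle and luminal lists as covariates the any-day F of Ccl19 was 2.42 (adjusted p = 0.502), against 3.29 (adjusted p = 0.414) without them. Ccl17, Ccr6 and Ccl20, picked out after their values were seen, had r = 0.824, 0.852 and 0.695 with Ccl19. They were the highest among 16 other chemokines and 11 receptors tested. The rest ran from 0.634 (Cxcr3) down to −0.394 (Ccl6), with Ccl21 at 0.219. Median intensities of Ccl17, Ccr6 and Ccl20 were 23.4, 11.5 and 11.8, so that Ccr6 and Ccl20 lay close to the cut of 10. Cxcl13, the other chemokine of lymphoid tissue, had r = 0.08 with the lymphocyte list.

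**Figure D5:**
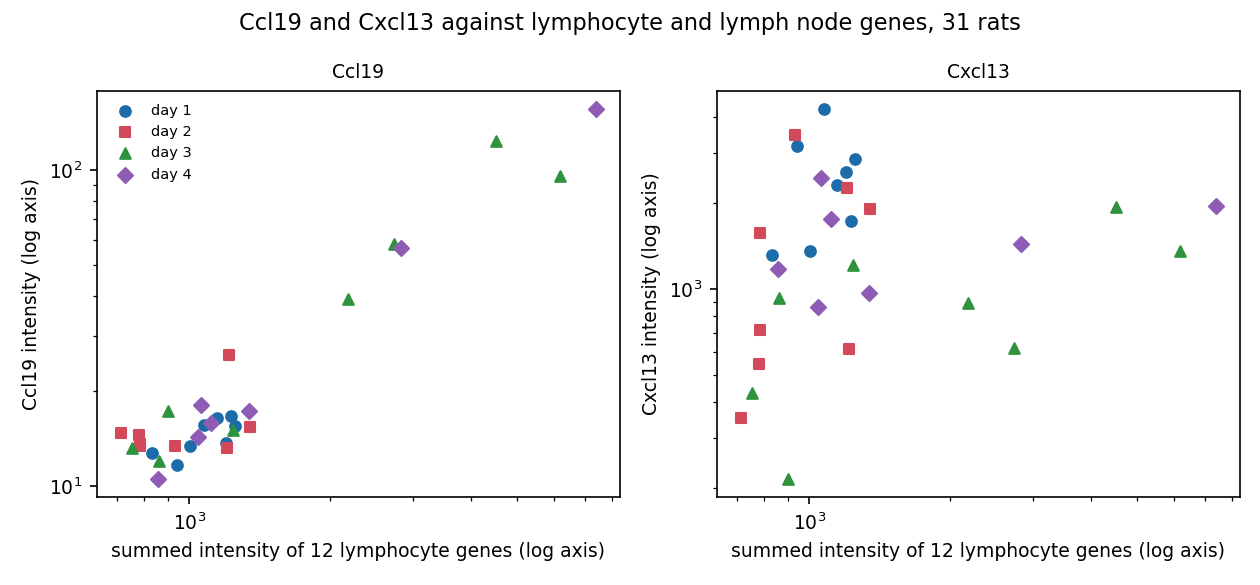
Ccl19 (left) and Cxcl13 (right) intensity against the summed intensity of 12 lymphocyte and lymph node genes in 31 rats, on log axes, with a point per rat and colour and shape for the cycle day. Ccl19 and the lymphocyte sum are high in the same 6 rats, 4 of day 3 and 2 of day 4, while Cxcl13 spans its range among rats with low sums.

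Cxcl16, a membrane-bound chemokine that is also a scavenger receptor for lipoproteins, had the narrowest range of the members. Its intensity was 434.8, 630.5 and 762.4 at lowest, median and highest after noon, against 515.9, 665.5 and 759.8 before noon, and the highest rat was 1.75-fold above the lowest. Neither the slope (−0.16, SE 0.11, adjusted p = 0.597) nor the difference of day 3 from day 1 (−0.10, SE 0.11, 95% interval −0.32 to 0.13, adjusted p = 0.757) passed.

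Of 25 other chemokines, 21 were on the array and 16 had a median of at least 10, and of 22 chemokine receptors 16 were on the array and 11 were tested. None of the 16 chemokines and none of the 11 receptors passed limma over 10 h or in day 3 against day 1. Median changes over 10 h were −0.05 and −0.01, against 0.02 for all probe sets tested, and between day 3 and day 1 they were 0.05 and −0.04, against −0.00471. Ccl6 had −0.51 (SE 0.16, adjusted p = 0.144) and Cx3cl1, the membrane-bound fractalkine, −0.59 (SE 0.20, adjusted p = 0.168) on day 3 against day 1, and Ccr2, the receptor of Ccl2 and Ccl7, −0.74 (SE 0.33, adjusted p = 0.307). These 3 were picked out after their values were seen.

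On the same contrast, several markers of the gland's other cells passed. Cd163, a scavenger receptor of macrophages, fell by 0.63 (adjusted p = 0.00887), 1 of 10 macrophage markers tested. Of 9 basal markers, 4 contractile genes rose, led by Cnn1 at 0.97 (adjusted p = 0.0059), and Oxtr, the oxytocin receptor, fell by 1.66 (adjusted p = 0.0318), while Tagln rose by 0.68, Myh11 by 0.66 and Mylk by 0.47. The keratins Krt8 and Krt18 of luminal cells rose by 0.47 and 0.41, and Lum, a proteoglycan of fibroblasts, by 0.88. Over the hours of the day Pdgfra, a fibroblast receptor, fell by 0.31 and the fat genes Cidec and Pparg rose by 0.74 and 0.92. The basal list was a covariate in no fit, and its part in the chemokine results was not tested.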

How the data were processed

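Total RNA of mammary glands from 32 rats was measured on 1 Affymetrix array each. The intensity values were made by the authors with GC-RMA in GeneSpring (listed as GCRMA by the submitters' processing notes, its version being not given in the sources used here) and were deposited on a linear scale, after background correction by probe sequence and normalization between arrays. Both steps can change differences between dim values. Labels and paper differ on how glands were stored and extracted, which was not settled here. Precision is limited by the number of arrays, and no scan batch was known.

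Members and gene lists were chosen with earlier results of these data known. After removal of 57 control probe sets, those with a median of at least 10 over 31 arrays were tested on log2 intensity with limma 3.58.1 in R 4.3.3, in a fit with a term per cycle day and a slope for the clock hour centred at 12 h. Benjamini-Hochberg adjustment ran over all 22943 probe sets, two-sided, at 0.05. A gene in a list was read by its probe set with the highest mean log2 intensity. Of the probe sets on the array, 20826 had 1 symbol, 436 several and 9780 none in the platform annotation. Genes named by rule are the members, the 5 most alike each member past a threshold, and list genes past a threshold, at most 5 per list. List genes that did not pass and are named as well were chosen by hand. The fit was tried on simulated data with independent noise for each probe set. Such data hold no variation in tissue make-up shared by probe sets, so that source of error was not tested. Promoters are from RefSeq. Alternatives covered filters, an offset of 16, normalization, variance model, terms for hour and day, covariates, each rat and each day left out. Python 3.11.15, numpy 2.4.6, pandas 2.3.3, scipy 1.17.1 and matplotlib 3.10.9 were used.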

Additional observations from a re-analysis of the deposited data

Results flagged for a closer look

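Within each cycle day, the rat with the highest or lowest log2 intensity was compared with the gap to its neighbour for all 13 probe sets, 52 groups in all, and 5 stood apart by Dixon's criterion, which chance passes in about 1 group in 20. The groups share rats and are not independent. Of the 5, 3 were low values of the rat of 62.5 h on day 3. Cxcl12 was at 263.2 in this rat by 1387655_at, against 467.7 to 615.3 in the other 7 rats of the day, and at 679.2 by 1388583_at, against 1127 to 1315. Cxcl14 was at 7.20 by 1396129_at, against 11.4 to 15.6. Ccl11 was at 573.3 in the rat of 79.3 h, against 973.9 to 1430 in the other rats of day 4. Ccl19 was at 26.1 in the rat of 31.6 h, against 13.2 to 15.4 in the other rats of day 2. On the array of 40 h, which was left out, all 13 probe sets lay within the range of the 31 rats. Within day 2, both Cxcl14 probe sets of this array lay above the 8 rats used (745.4 against 201.0 to 663.1, and 24.3 against 7.16 to 21.6). Its Cxcl12 by 1388583_at lay below them (1016 against 1126 to 1829).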

How the results depend on the processing

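Cxcl1 stayed past the threshold over 10 h in all 17 other settings and in all 31 fits without 1 rat. The count of members higher over 10 h, 0 in the fit reported, was 1 (Ccl11) with a filter of 10 on every array, with all 32 arrays, with quantile normalization, with trend and robust variance, with array weights, without day 1 and with the neutrophil, macrophage, fibroblast and endothelial lists, at adjusted p of 0.00213 to 0.0496, and it was 0 to 1 without single rats. In the remaining settings Ccl11 had adjusted p of up to 0.506. The count over any day, 1 in the fit reported, was 0 with no filter (Cxcl14 adjusted p = 0.0609), with all 32 arrays (0.0666), with a squared clock hour (0.0536) and with those 4 lists (0.186), and 0 to 1 without single rats. The calls over the 6 pairs of days, 1 in the fit reported, were 2 with array weights, 2 with the lymphocyte, fat, muscle and luminal lists and 0 with the neutrophil, macrophage, fibroblast and endothelial lists, and 0 to 1 without single rats. The count for slopes that differ between days stayed at 0. No slope or difference that passed changed sign. The causes were not tested.

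Over all probe sets, those lower over 10 h (156) numbered 90 with a squared clock hour, 83 without day 1, 54 without day 2 and 99 with the neutrophil, macrophage, fibroblast and endothelial lists, and those higher (247) numbered 134, 141 and 75 in the first 3 and 154 without day 4. The any-day count (115) was 73 with no filter, 359 with array weights, 10 with the same 4 lists and 41 to 173 without single rats. Those lower on day 3 than on day 1 (144) numbered 369 with array weights, 219 with the lymphocyte, fat, muscle and luminal lists, 0 with the other 4 lists and 47 to 210 without single rats. No paired analysis was possible because the labels give no replicate numbers and each rat was sampled once. The rats of day 3 were killed between clock hours 9 and 19.1 and those of day 1 between 7 and 17.6, so the 2 days cover different hours.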
